A study of Homo sapiens with 6 samples.

Results

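The genes described are 10 members of the transforming growth factor beta (TGF-beta) pathway: the ligands TGFB1 and TGFB2, the receptors TGFBR1 and TGFBR2, the signal-transducing SMAD2, SMAD3 and SMAD4, the inhibitory SMAD6 and SMAD7, and the corepressor SKIL. They were taken by symbol from the platform annotation with all their single-gene probe sets, which gave 36 of the 44988 single-gene probe sets of the array, for 10 of 18132 measured genes. Their signals were compared between 3 arrays of HCT116 cells labelled CSF3 and 3 arrays of HCT116 cells labelled Ctrl. HCT116 is a human colorectal carcinoma line, and all cells were grown in RPMI-1640 with fetal bovine serum and antibiotics, per the design text. The labels give CSF3, the granulocyte colony-stimulating factor, as the treatment, and control as the other level. The form in which the cells received CSF3 (protein or construct), the dose and the duration are not stated in the labels. The series' title places the comparison in a study of NF-kB signalling and autophagy.

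In this pathway a TGF-beta ligand binds a type II receptor (TGFBR2), which phosphorylates a type I receptor (TGFBR1). The type I receptor phosphorylates SMAD2 and SMAD3, which join SMAD4 and enter the nucleus, where they act on genes whose promoters often hold the letters GTCT. Among those genes are the pathway's own brakes: SMAD7 and SMAD6 block the receptors or SMAD4, and SKIL (SnoN) represses SMAD target genes. HCT116 is known as a mismatch repair deficient line with inactivating frameshift mutations in TGFBR2, and it is therefore known to respond poorly to TGF-beta itself. The arrays measure RNA and not receptor function.

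The upstream sequences of the 3 feedback genes are shown because these genes are known as direct outputs of SMAD or bone morphogenetic protein signalling. Each line is the 250 bases before the annotated start of the gene, from RefSeq on GRCh38.p14, 5′ to 3′ on the strand of the gene. Capitals mark the SMAD box GTCT on either strand, and in SKIL also the cyclic AMP response element TGACGTCA.
SMAD6, chr15:66701986-66702235, plus strand: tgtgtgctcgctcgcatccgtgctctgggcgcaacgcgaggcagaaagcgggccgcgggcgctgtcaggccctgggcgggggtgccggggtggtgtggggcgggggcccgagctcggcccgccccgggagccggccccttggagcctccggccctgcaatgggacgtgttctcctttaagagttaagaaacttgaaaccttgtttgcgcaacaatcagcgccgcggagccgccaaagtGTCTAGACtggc
SMAD7, chr18:48950966-48951215, minus strand: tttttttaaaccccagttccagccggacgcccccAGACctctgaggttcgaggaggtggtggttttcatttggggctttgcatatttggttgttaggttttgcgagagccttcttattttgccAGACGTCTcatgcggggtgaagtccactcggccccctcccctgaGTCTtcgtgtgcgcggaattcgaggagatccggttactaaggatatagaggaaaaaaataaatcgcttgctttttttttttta
SKIL, chr3:170357465-170357714, plus strand: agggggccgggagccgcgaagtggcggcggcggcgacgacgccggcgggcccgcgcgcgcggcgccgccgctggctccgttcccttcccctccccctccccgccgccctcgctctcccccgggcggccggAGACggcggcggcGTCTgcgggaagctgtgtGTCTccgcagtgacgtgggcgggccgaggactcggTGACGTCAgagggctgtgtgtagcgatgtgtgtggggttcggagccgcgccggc
SMAD6 holds the palindrome GTCTAGAC, which is 2 adjacent SMAD boxes on opposite strands, at -12 to -5 from its start. Of 35114 upstream windows of the same length, 0.182% hold this palindrome. It was found in none of the windows of this length at the annotated gene starts of the other 9 genes. Only the window at the annotated gene start was read for each gene. SMAD7 has 3 upstream windows, and its others were not examined on their own, so absence from SMAD7 as a whole is not shown. The single box is common, since 77.5% of all windows hold it, and it occurs 4 times in the SMAD7 window and 3 times in the SKIL window. In SMAD7, 2 of the boxes, at -127 to -124 and -123 to -120, also adjoin on opposite strands, in the other order. TGACGTCA lies at -54 to -47 in SKIL and is found in 1.65% of windows. The NF-kB consensus, searched on both strands, was found in the windows of TGFB1 and SMAD3 and in none of the 3 shown, against 9.96% of all windows. A match describes letters and is no evidence of binding.

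The values are log2 signals as deposited, and a change is CSF3 minus Ctrl with its standard error (SE), from limma over all genes. A gene is represented by its brightest probe set, by the mean of all 6 arrays, unless another is named. Calls use a Benjamini-Hochberg adjusted p under 0.05. Across all genes 45.4% were called higher and 27.1% lower in CSF3 cells, and the median change of all genes was 0.16, or 0.13 after quantile normalization. Pearson's r was 0.994 to 0.995 between CSF3 arrays, 0.998 between Ctrl arrays and 0.970 to 0.974 between the groups. CSF3 itself averaged 5.96 ± 0.04 in CSF3 cells and 4.83 ± 0.30 in Ctrl cells (SD, n = 3 each), a limma adjusted p of 0.000371. CSF3R, its receptor gene, averaged 5.18 ± 0.08 in CSF3 cells and 4.43 ± 0.01 in Ctrl cells. Of 10 epithelial markers, 5 were called higher (CLDN4 by 0.65, KRT19 by 0.47, KRT20 by 0.45, CDX2 by 0.34 and KRT18 by 0.22) and 2 lower. Those 2 were KRT8, which averaged 5.06 in CSF3 cells and 6.37 in Ctrl cells, and EPCAM, which averaged 3.30 in CSF3 cells and 3.63 in Ctrl cells. CDH1 averaged 2.24 in CSF3 cells and 2.20 in Ctrl cells and was not called. EPCAM, CDH1, KRT19, CLDN7 and KRT20 had Ctrl means of 1.79 to 3.63, within the 1.66 to 3.76 of background controls described below. VIL1 lay under that range at 1.43. KRT18, KRT8 and CLDN4 had the highest signals of the 10 in both groups. The identity of the line is taken from the labels and was not tested with these markers. The summed signal of the 10 epithelial markers lay at 8.48 to 8.50 on the CSF3 arrays and 8.42 to 8.45 on the Ctrl arrays (log2). The sum of 6 fibroblast markers lay at 5.60 to 5.74 and 5.15 to 5.21, that of 5 white blood cell markers at 5.07 to 5.19 and 4.66 to 4.79, and that of 4 endothelial markers at 5.99 to 6.03 and 5.36 to 5.45, in the same order of groups. No fibroblast or white blood cell marker averaged above 3.87 in either group, and no endothelial one above 4.41. The part of these sums in the results below was not tested. Hybridisation controls, which are added to the array and measure no gene of the cells, had a median of 8.36 ± 0.05 on CSF3 arrays and 6.82 ± 0.07 on Ctrl arrays (SD, n = 3 each). The gap between the 3′ and 5′ probe sets of GAPDH was 0.682 ± 0.003 on CSF3 arrays and 0.306 ± 0.007 on Ctrl arrays. For ACTB this gap was 1.94 ± 0.02 on CSF3 arrays and 1.34 ± 0.03 on Ctrl arrays. For each of these measures, the two-sided exact permutation test gave p = 0.1, and no smaller value is possible with 3 arrays against 3. The labels do not say whether replicates were separate cultures, so the p-values measure only the spread between these arrays.

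Of the 10 genes, 4 fell, 4 rose and 2 did not pass the test. The ligand gene TGFB1, both receptor genes and SMAD2 fell, while TGFB2, SMAD4, SMAD7 and SKIL rose, and SMAD3 and SMAD6 were not called. These are calls on the brightest probe set. SMAD4 rose on that one alone, and its 6 other probe sets fell. With all probe sets of a gene averaged, 4 genes were higher and 5 lower. The shares of higher and lower calls are read against the 45.4% and 27.1% of all genes given above, so changes in both directions were common on these arrays. The median change of the 10 genes was -0.026 as deposited and -0.11 after quantile normalization.

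**Figure D1:**
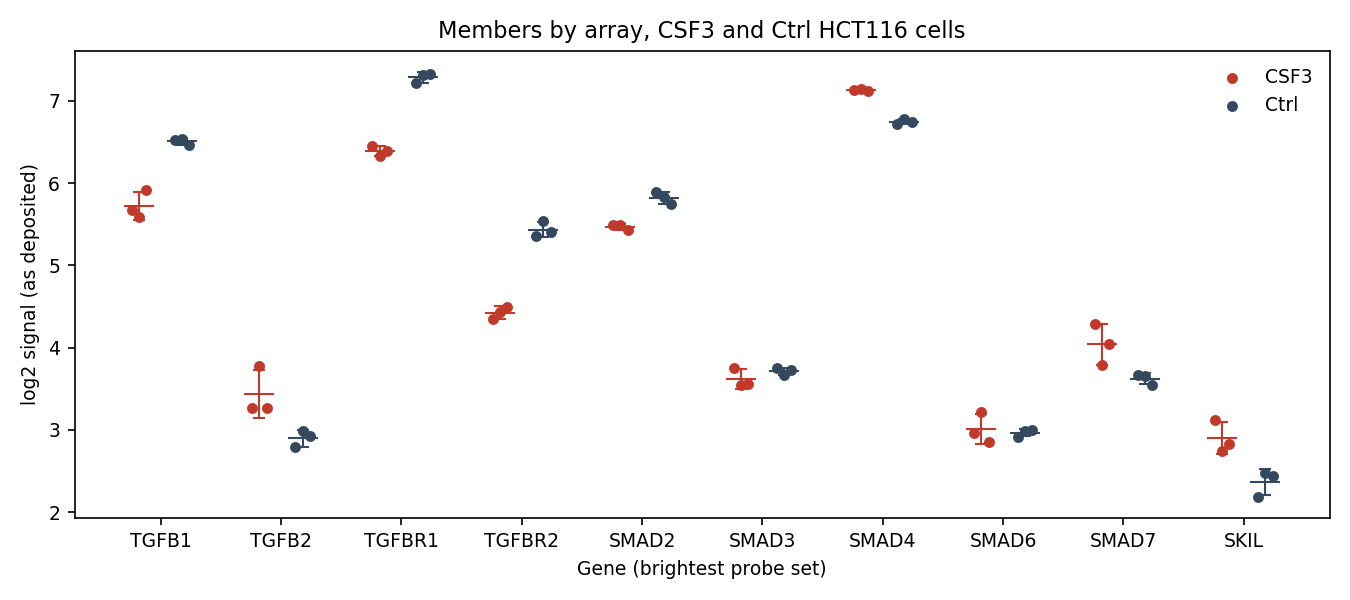
Log2 signal of the brightest probe set of each gene (vertical axis) on the 3 CSF3 arrays (red, left) and the 3 Ctrl arrays (dark, right); bars are the mean ± SD. The groups do not overlap for TGFB1, TGFBR1, TGFBR2 and SMAD2, where CSF3 is lower, and for TGFB2, SMAD4, SMAD7 and SKIL, where CSF3 is higher; they overlap for SMAD3 and SMAD6.

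Among the ligands, TGFB1, the most widely expressed TGF-beta isoform, fell. Its only probe set read 5.67, 5.59 and 5.92 in CSF3 cells, against 6.52, 6.54 and 6.46 in Ctrl cells. All CSF3 arrays lay below all Ctrl arrays, as was so for 29.1% of all genes. The change was -0.78 ± 0.09, a 1.72-fold lower signal (limma adjusted p = 0.000255), and it was -0.52 after quantile normalization (limma adjusted p = 0.00192).

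TGFB2, an isoform known for roles in development and epithelial plasticity, went the other way. It read 3.27, 3.77 and 3.27 in CSF3 cells and 2.79, 2.99 and 2.92 in Ctrl cells, so the groups did not overlap, as in 47.2% of all genes in this direction. The change was 0.54 ± 0.14 (limma adjusted p = 0.0105). Its second probe set changed by 0.50 ± 0.09, and the brightest minus the other differed by 0.043 ± 0.14 between the groups and was not called (limma adjusted p = 0.834). The call of the gene on its brightest probe set was lost after quantile normalization (0.42, limma adjusted p = 0.0505) and after cyclic loess normalization (0.34, limma adjusted p = 0.0673). The second probe set kept its call under both (0.29 and 0.27, limma adjusted p = 0.0224 and 0.0283).

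The receptor genes both fell on their brightest probe sets. TGFBR1, the type I receptor kinase, read 6.45, 6.34 and 6.39 in CSF3 cells and 7.21, 7.32 and 7.33 in Ctrl cells. This was a 1.86-fold lower signal (-0.90 ± 0.06, limma adjusted p = 2.96e-05). TGFBR2, the type II receptor that binds the ligand, read 4.35, 4.43 and 4.50 in CSF3 cells and 5.36, 5.53 and 5.41 in Ctrl cells, a 2.01-fold lower signal (-1.01 ± 0.07, limma adjusted p = 3.21e-05). Both falls were smaller but still called after quantile normalization, at -0.67 for TGFBR1 and -0.82 for TGFBR2 (limma adjusted p = 0.000112 and 0.000106).

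The other probe sets of the receptors, which were dimmer, did not follow. TGFBR1 has 2 more, which averaged 2.18 and 2.09 in CSF3 cells and 1.84 and 2.01 in Ctrl cells, with changes of 0.34 ± 0.11 (limma adjusted p = 0.0230) and 0.074 ± 0.099 (limma adjusted p = 0.521). The call at 0.34 was lost after quantile and after cyclic loess normalization (0.12 each) and without each Ctrl array in turn (0.34 each time). Without the third CSF3 replicate the change was 0.22, still called. The second probe set of TGFBR2 averaged 3.57 ± 0.07 in CSF3 cells and 3.33 ± 0.06 in Ctrl cells (SD, n = 3 each), a change of 0.24 ± 0.07 (limma adjusted p = 0.0145) whose call was lost after quantile normalization (0.17) and without the first or the second Ctrl replicate (0.23 and 0.21). The difference between the brightest probe set and the mean of the others, taken within each array, changed by -1.10 ± 0.09 for TGFBR1 (limma adjusted p = 0.000242) and by -1.24 ± 0.10 for TGFBR2 (limma adjusted p = 0.000208), so it was smaller in CSF3 cells. A shift common to a whole array cancels in this difference, whereas one that depends on signal does not. Averaging all probe sets gave changes of -0.16 for TGFBR1 and -0.38 for TGFBR2, both still called. In Ctrl cells these other probe sets averaged within 1.66 to 3.76, the range of the 6 background controls described below. Those controls changed by 0.07 to 0.29, and the part of that shift here was not tested. Which transcripts each probe set reads was not analysed here.

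The receptor-activated SMADs differed from each other. SMAD2 fell on its brightest probe set, with 5.49, 5.49 and 5.43 in CSF3 cells and 5.89, 5.83 and 5.75 in Ctrl cells (-0.35 ± 0.06, limma adjusted p = 0.00134). Quantile normalization left -0.095 (limma adjusted p = 0.182) and cyclic loess normalization -0.14 (limma adjusted p = 0.0622), so the call was lost under both. Of its 7 probe sets, however, 6 fell, by 0.35 to 1.11 on the log2 scale, and all CSF3 arrays lay below all Ctrl arrays in each of these 6. The probe set with the furthest fall read 3.96, 3.59 and 3.78 in CSF3 cells and 5.13, 4.70 and 4.83 in Ctrl cells (-1.11 ± 0.13). The seventh averaged 4.27 ± 0.21 in CSF3 cells and 4.05 ± 0.18 in Ctrl cells (SD, n = 3 each) and was not called (limma adjusted p = 0.163 over all probe sets). The brightest one fell less than the mean of the others, with a within-array difference of 0.34 ± 0.07 (limma adjusted p = 0.00775), and the mean of all 7 fell by 0.64 (limma adjusted p = 3.25e-05).

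SMAD3, the other substrate of the type I receptor, was not called. Its brightest probe set read 3.75, 3.55 and 3.56 in CSF3 cells and 3.75, 3.66 and 3.73 in Ctrl cells, and these groups overlap (-0.094 ± 0.071, limma adjusted p = 0.261). Of its other 4 probe sets, 3 rose, with changes of 0.57 ± 0.08, 0.39 ± 0.13 and 0.49 ± 0.06, and 1 was not called (0.14 ± 0.08). The call at 0.39 was lost after quantile normalization (0.23) and without the first or second CSF3 replicate (0.26 and 0.41) or the second or the third Ctrl replicate (0.37 and 0.32). The brightest changed by 0.49 ± 0.08 less than the mean of the others (-0.49, limma adjusted p = 0.00269). With all probe sets averaged the gene rose by 0.30 (limma adjusted p = 0.00256), the reverse of the sign of its brightest probe set, so SMAD3 has no settled direction. Its brightest probe set was called lower after cyclic loess normalization (-0.21, limma adjusted p = 0.0490) and without the first CSF3 replicate (-0.16, limma adjusted p = 0.0366).

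SMAD4, the common partner of the activated SMADs, had probe sets that changed in opposite directions. Its brightest probe set read 7.14, 7.15 and 7.12 in CSF3 cells and 6.72, 6.78 and 6.74 in Ctrl cells, a rise of 0.39 ± 0.05 (limma adjusted p = 0.000392), and 0.61 once quantile normalized. All 6 other probe sets fell, with changes from -0.25 to -1.06. The call of the least changed one was lost after quantile normalization (-0.13) and without any single array except the first CSF3 replicate, where it ran from -0.19 to -0.26. The one with the furthest fall read 4.27, 4.13 and 4.28 in CSF3 cells and 5.17, 5.33 and 5.34 in Ctrl cells (-1.06 ± 0.07). The within-array difference between the brightest and the others was 3.28 ± 0.04 in CSF3 cells and 2.30 ± 0.02 in Ctrl cells (SD, n = 3 each), a gap of 0.97 ± 0.06 (limma adjusted p = 0.000143). Averaging all 7 probe sets turned the rise into a fall of 0.45 (-0.45, limma adjusted p = 6.71e-05). The direction of SMAD4 thus depends on the probe set, and 1 of the 7 gives the rise.

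**Figure D2:**
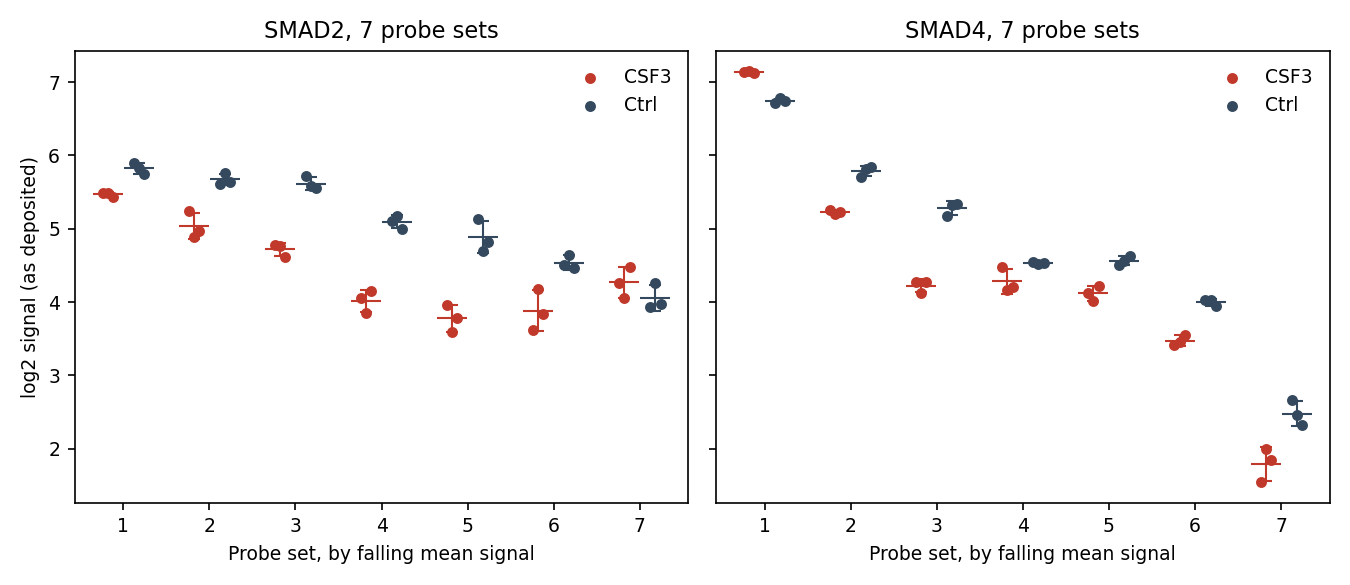
Log2 signal of each of the 7 probe sets of SMAD2 (left) and SMAD4 (right), ordered by falling mean signal, on CSF3 arrays (red) and Ctrl arrays (dark); bars are the mean ± SD of 3 arrays. For SMAD2 the first 6 lie lower in CSF3 cells; for SMAD4 the first lies higher (7.13 against 6.75) and the other 6 lie lower.

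The inhibitory SMADs gave one weak rise and one gene without a call. SMAD6, which mainly restrains bone morphogenetic protein signalling and whose upstream window holds the palindrome shown above, read 2.96, 3.22 and 2.86 in CSF3 cells and 2.91, 2.99 and 3.00 in Ctrl cells. The groups overlap, and the change of 0.041 ± 0.094 was not called (limma adjusted p = 0.699). None of its 3 probe sets was called, with changes of 0.041 to 0.10. After quantile normalization the sign turned (-0.12, limma adjusted p = 0.311), so no direction is given.

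SMAD7, the feedback inhibitor that recruits ubiquitin ligases to the receptors, read 4.29, 3.78 and 4.05 in CSF3 cells and 3.67, 3.65 and 3.54 in Ctrl cells. The groups did not overlap, and the gene rose by 0.42 ± 0.12 (limma adjusted p = 0.0161). The second CSF3 array lay nearest to the Ctrl arrays. The call was lost after cyclic loess normalization (0.34, limma adjusted p = 0.0511) and without the third Ctrl replicate (0.38, limma adjusted p = 0.0549), but not after quantile normalization (0.43, limma adjusted p = 0.0302). Its other 2 probe sets changed by 0.29 ± 0.14 and 0.17 ± 0.10 and were not called, although without the second CSF3 replicate the first of them was (0.42, limma adjusted p = 0.0243).

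SKIL, whose protein holds SMAD complexes inactive and is itself a SMAD target, rose on all 3 of its probe sets. The brightest read 3.12, 2.75 and 2.83 in CSF3 cells and 2.19, 2.48 and 2.43 in Ctrl cells (0.53 ± 0.12, limma adjusted p = 0.00509). The other 2 averaged 2.67 ± 0.19 and 1.83 ± 0.12 in CSF3 cells and 2.30 ± 0.09 and 1.39 ± 0.13 in Ctrl cells (SD, n = 3 each), with changes of 0.38 ± 0.10 and 0.44 ± 0.09. In all 3 the groups did not overlap, as in 39.8% of all probe sets in this direction. The calls were lost after quantile normalization, where the brightest changed by 0.33 (limma adjusted p = 0.0576), and after cyclic loess normalization (0.31, limma adjusted p = 0.0628). The call of the probe set at 0.38 was also lost without the third Ctrl replicate (0.33).

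SKIL and TGFB2 lay among the dimmer probe sets, whose median change over the whole array was 0.23. The array carries 23 antigenomic background control probe sets, named by their number of G and C bases. The 6 of them with a Ctrl mean between 1.66 and 3.76, a range chosen after the values were seen, were higher on every CSF3 array than on any Ctrl array, with changes from 0.07 to 0.29 and a median of 0.21. The 3 SKIL probe sets changed by 0.38 to 0.53 beside these, and the part of the background shift in their change was not tested. All probe sets of SMAD7 and SMAD3 also had Ctrl means in that range, at 2.05 to 3.62 and 2.50 to 3.71. For their changes, too, the part of the shift was not tested. The base composition of the members' own probes was not used here, and no fold is given for these genes because no detection calls were used.

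Over the whole set of 36 probe sets, 12 rose and 15 fell, against 36.7% higher and 28.8% lower among all 44988. All 6 arrays split cleanly by group in 11 probe sets where CSF3 was higher and in 15 where it was lower, against 39.8% and 30.9% of all probe sets. Of the 17 above the median signal of all probe sets (3.72), 14 fell and 2 rose, where 47.0% of all brighter probe sets fell and 25.2% rose. Of the 19 at or below it, 1 fell and 10 rose, where 10.6% of all dimmer probe sets fell and 48.2% rose. The median change of the brighter members was -0.64, against -0.16 for all brighter probe sets, and that of the dimmer members was 0.29, against 0.23. Most of the brighter members are probe sets of SMAD2 and SMAD4, which have 7 each, with 6 of each called lower. Probe sets of 1 gene are repeat readings, so these counts and medians describe probe sets and not separate genes. After quantile normalization 5 member probe sets were higher and 13 lower. Of the 9 genes with several probe sets, 5 had a brightest probe set that changed differently from the others, against 39.9% of the 11734 such genes on the array. It changed more negatively in 3 (TGFBR1, TGFBR2 and SMAD3) and more positively in 2 (SMAD2 and SMAD4), against 17.9% and 22.1%.

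**Figure D3:**
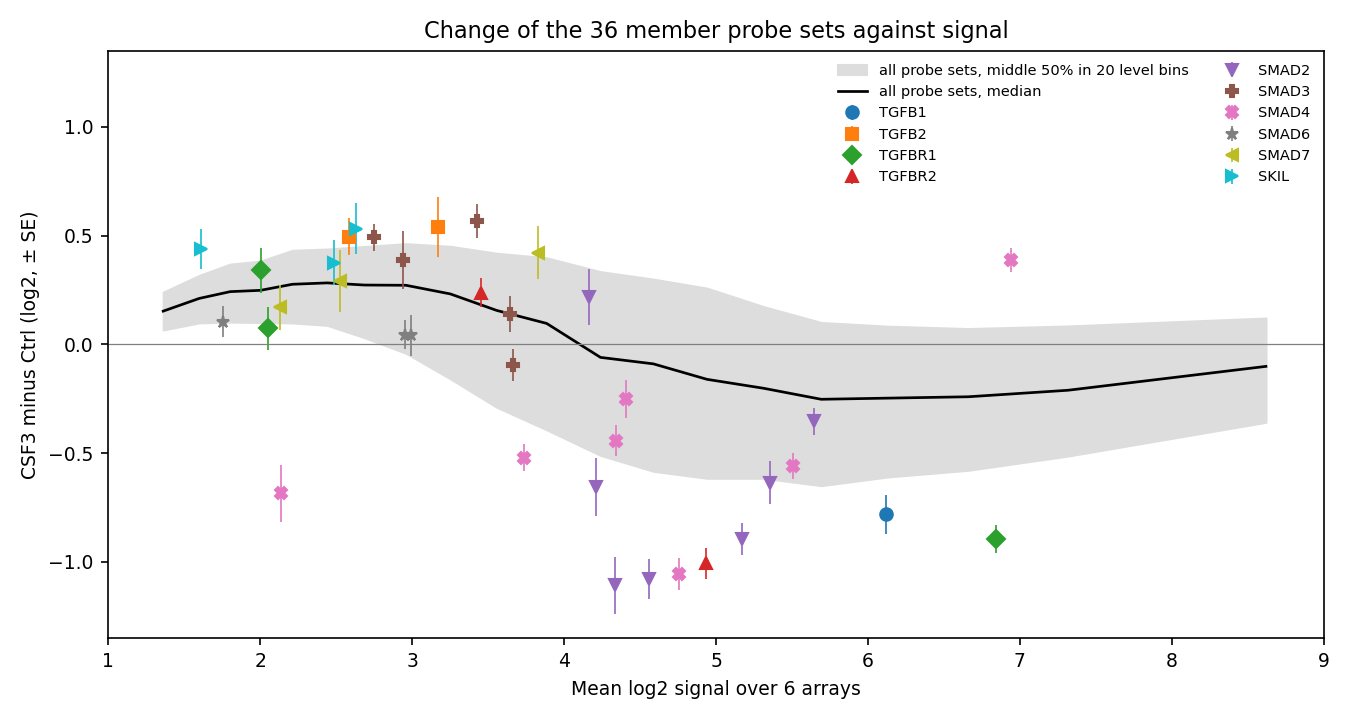
Change of each of the 36 probe sets (CSF3 minus Ctrl, log2, ± SE) against its mean log2 signal over 6 arrays, with the median (line) and the middle 50% (band) of all 44988 single-gene probe sets in 20 bins of signal. The probe sets of TGFB1, TGFBR1, TGFBR2, SMAD2 and SMAD4 with the furthest falls lie below the band, between -0.78 and -1.11, and the brightest of SMAD4 lies above it at 0.39.

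**Figure D4:**
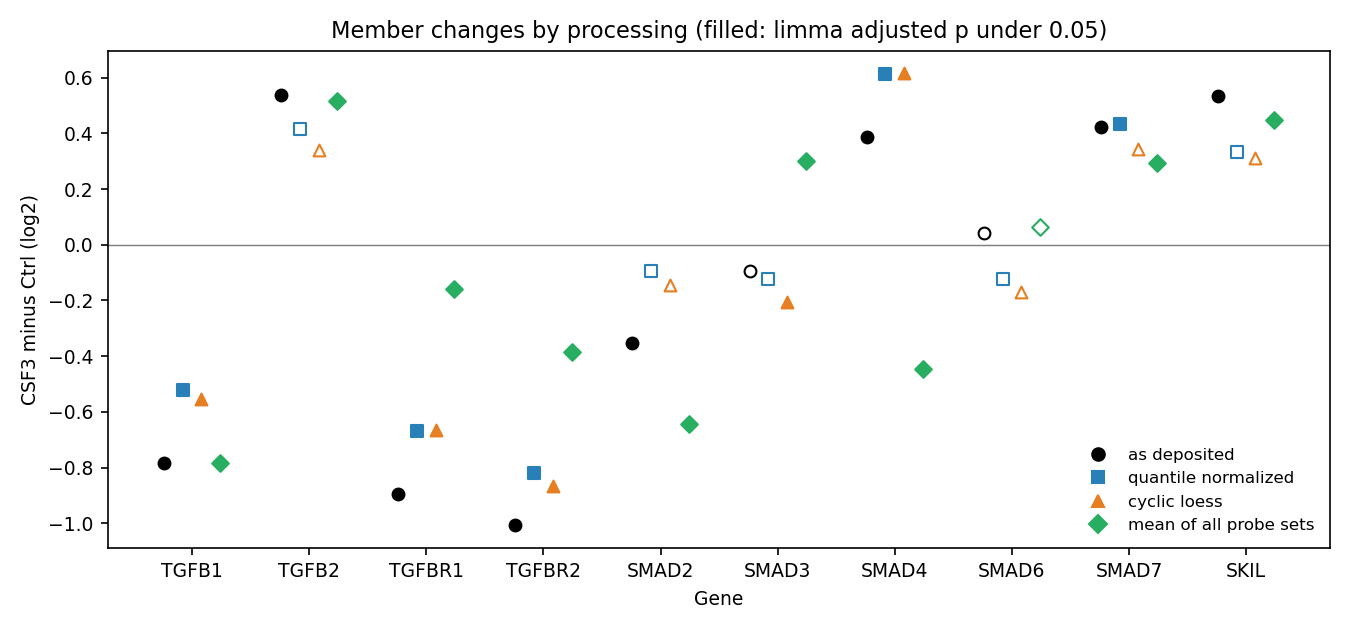
Change of each gene (CSF3 minus Ctrl, log2) on its brightest probe set as deposited, after quantile and after cyclic loess normalization, and with all probe sets averaged; filled symbols have a limma adjusted p under 0.05. TGFB1, TGFBR1 and TGFBR2 are lower and called under all 4, whereas SMAD4 is at 0.39, 0.61 and 0.62 on its brightest probe set and at -0.45 with all averaged.

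The other genes of the pathway were described from 6 lists. Of 18 ligands and latency proteins, 11 were higher and 2 lower, where 45.4% of all genes were higher (median change 0.28, against 0.16 for all genes). BMP2, a bone morphogenetic protein, averaged 4.12 in CSF3 cells and 3.26 in Ctrl cells (0.85 ± 0.08), with 1 of its 2 probe sets called higher. INHBB, an activin subunit, averaged 2.52 and 1.87 (0.65 ± 0.05). LTBP2, a matrix protein of the latent TGF-beta binding family, changed by -0.62 ± 0.05 and fell on both of its probe sets. Of 12 receptors and co-receptors, 7 were higher and 5 lower, where 45.4% of all genes were higher and 27.1% lower. BAMBI, a decoy receptor that dampens TGF-beta signalling and is induced by it, rose by 0.84 ± 0.06. ACVR1, a type I receptor for bone morphogenetic proteins and activin, fell by 0.87 ± 0.07. CD109, a TGF-beta co-receptor, fell by 0.94 ± 0.08, with 1 of its 3 probe sets called lower. The limma adjusted p of the 3 genes named from each list was at most 0.000223.

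Of 20 other SMADs, adaptors and SMAD inhibitors, 13 were lower, 0 higher and 7 not called (median -0.33), where 27.1% of all genes were lower. At an unadjusted p under 0.05 limma gave 14 lower and 0 higher. SMAD1 and SMAD5, the SMADs of bone morphogenetic protein signalling, fell by 0.94 ± 0.06 and 0.62 ± 0.07. Both probe sets of SMAD1 and 4 of the 5 of SMAD5 were called lower. RNF111, a ubiquitin ligase (Arkadia) that destroys SKIL and SMAD7 proteins, averaged 5.46 in CSF3 cells and 6.40 in Ctrl cells on its brightest probe set and fell on all 3 (-0.93 ± 0.05). SKI, the close relative of SKIL and chosen for mention after its value was seen, changed by -0.50 ± 0.09 (limma adjusted p = 0.00182). Of its 5 probe sets, 3 were called lower. After quantile normalization SKI was not called (-0.24, limma adjusted p = 0.0637). Quantile normalization left 6 lower and 2 higher in this list, with a median of -0.11, where 20.1% of all genes were lower and 39.2% higher.

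Of 20 SMAD target genes, 13 were higher and 1 lower (median 0.42), where 45.4% of all genes were higher. After quantile normalization 14 were higher and 1 lower, where 39.2% of all genes were higher. TAGLN, an actin-binding protein gene, averaged 8.30 in CSF3 cells and 6.97 in Ctrl cells and rose on all 6 probe sets (1.33 ± 0.06). SNAI1, a repressor of epithelial genes, rose by 1.48 ± 0.07. HMGA2, a chromatin protein gene induced by TGF-beta in epithelial cells, fell, with 5.90 in CSF3 cells and 7.48 in Ctrl cells (-1.58 ± 0.06). Of its 6 probe sets, 3 were called lower. Among targets picked after their values were seen, CCN2 rose by 0.80 ± 0.09, TGFBI by 0.61 ± 0.09 and PMEPA1 by 0.47 ± 0.08. In the same order, 2 of 3, 3 of 4 and 2 of 3 probe sets were called higher. These genes are also induced by other pathways. The fibroblast, white blood cell and endothelial marker sums were all higher on the same arrays. No fibroblast marker averaged above 3.87, and the part of these sums in the target genes' changes was not tested.

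Of 17 nuclear partners of the SMADs, 4 were higher and 6 lower, where 45.4% of all genes were higher and 27.1% lower. The list median of -0.079 turned to 0.024 after quantile normalization. ATF3 and JUNB, bZIP factors that pair with SMADs, rose by 1.28 ± 0.05 and 0.87 ± 0.05. RUNX2, a Runt factor, fell by 1.09 ± 0.06, with 1 of its 2 probe sets called lower. The SMAD-independent branch had 4 of 12 genes higher and 8 lower, against the same 45.4% and 27.1% of all genes. Its median was -0.40, or -0.21 after quantile normalization. MAP3K7, the kinase TAK1, fell on all 7 probe sets (-1.07 ± 0.07), ROCK1 fell by 0.81 ± 0.06 and XIAP fell by 0.58 ± 0.05 on their brightest probe sets. ROCK1 and XIAP also have 1 and 2 probe sets that rose.

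**Figure D5:**
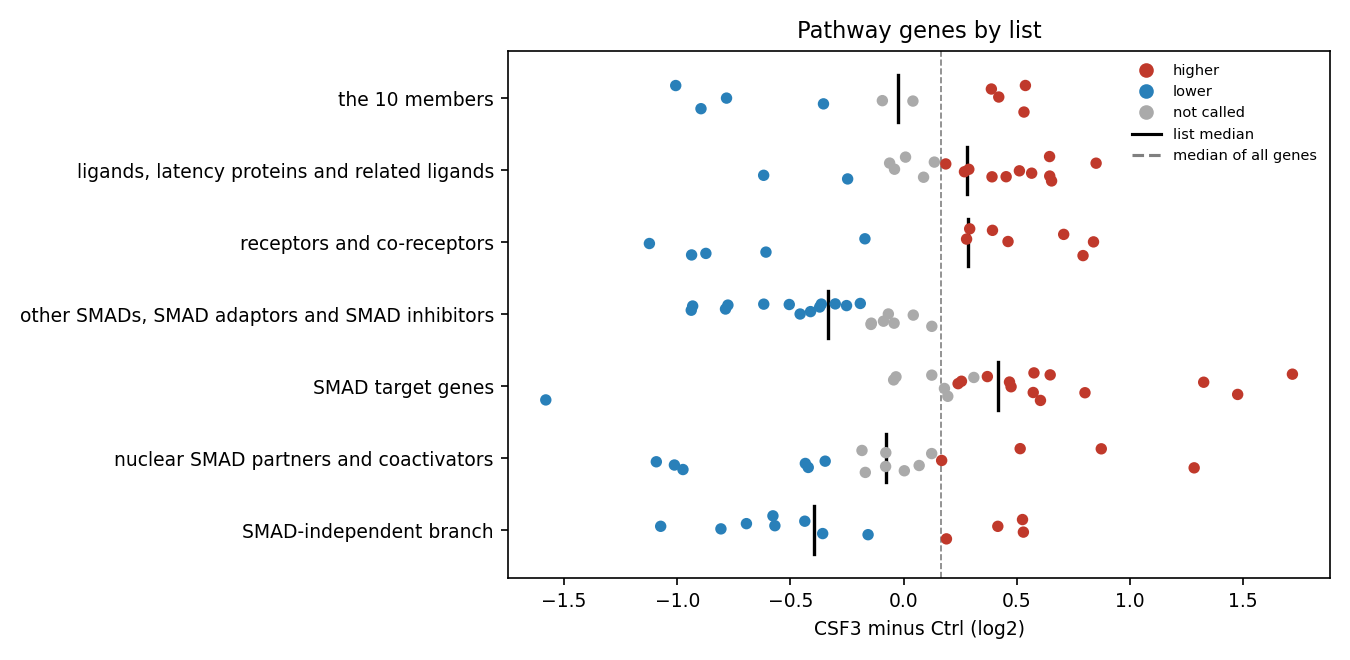
Change of each gene (CSF3 minus Ctrl, log2, brightest probe set) in the 10 members and in 6 lists of pathway genes; red is higher, blue lower and grey not called, solid ticks are list medians and the dashed line is the median of all genes (0.16). SMAD target genes have a median of 0.42 and other SMADs and adaptors one of -0.33.

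By the distance between centred profiles over the 6 arrays, the genes nearest to SKIL were ISX, PTPRD and FGF2, at 0.0346, 0.0841 and 0.0975 log2 units. Those nearest to SMAD7 were CXCR6, MAGEB4 and PRR16, at 0.0877, 0.110 and 0.112. In Ctrl cells the 3 genes near SKIL averaged 1.96 to 2.30 and the 3 near SMAD7 averaged 2.37 to 2.93. These levels lie in the range of the background controls that were higher on CSF3 arrays. Such likeness over 6 arrays in 2 groups describes these arrays alone.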

How the data were processed

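Per the labels and the design text, biotin-labelled total RNA was measured on Affymetrix arrays. The authors deposited 1 value for each of 49395 probe sets on 6 arrays, taken as log2 from their range of 0.81 to 12.7; the sources used here do not give the base, background correction, summarisation or normalization. Arrays of different groups share 279 to 428 exactly equal values, and arrays of one group 518 to 1003. Precision is limited by having 3 arrays a group.

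Probe sets with 1 gene in the platform annotation were kept (44988), symbols were checked by Entrez identifier (44961 matched, 0 changed), and 1832 with several genes, 2473 with none and 102 controls were left out. CSF3 minus Ctrl was tested with limma 3.58.1 in R 4.3.3 in 3 fits without covariates: over 18132 genes (brightest probe set by mean), over all single-gene probe sets, and over 11734 genes for the brightest minus the mean of the other probe sets within each array. Each whole fit had its own Benjamini-Hochberg adjustment, with a threshold of 0.05. Each fit was tested on simulated data. Alternatives were quantile, cyclic loess and median scaling, leaving out the 30% dimmest features, averaging probe sets, trend with robust settings, array weights, the replicate block and leaving out each array. The deviations of same-numbered replicates correlated at 0.038, 0.030 and 0.027. These lay above all unlike-numbered pairs, which ran from -0.038 to 0.0085. Since all were small, the numbers were not taken as pairs in the main fits, and the replicate block was run as an alternative.

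The members and lists were chosen with earlier results of these data known. Named from the lists are the 3 genes with the smallest p in each, with all 10 members, CSF3 and CSF3R, and for SKIL and SMAD7 the 3 nearest profiles. SKI, CCN2, TGFBI and PMEPA1 fall outside this rule and were chosen after their values were seen. The description field carries a different code for each group, so any batch it marks and the group cannot be told apart.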

Additional observations from a re-analysis of the deposited data

Results flagged for a closer look

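Control probe sets, which measure no gene of the cells and enter no comparison of the members, read higher on the CSF3 arrays. The median of the hybridisation controls was 1.53 higher and that of the poly-A controls 1.64 higher on CSF3 arrays than on Ctrl arrays (log2, n = 3 each). The 6 background controls with a Ctrl mean of 1.66 to 3.76 were higher by a median of 0.21. Groups of 3 arrays were too small to look for single arrays that stand apart. The part of these shifts in the members' changes was not tested.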

How the results depend on the processing

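Member genes called higher numbered 4 as deposited, 2 after quantile (SMAD4 and SMAD7) and 1 after cyclic loess normalization (SMAD4). Member probe sets called higher numbered 12, 5 and 4 in the same order. Of all genes, 45.4%, 39.2% and 36.3% were called higher in that order, and 27.1%, 20.1% and 21.4% lower. Member genes called lower numbered 4, 3 and 4 (after cyclic loess SMAD2 lost its call and SMAD3 gained one), and member probe sets called lower 15, 13 and 13. Lower genes over the 6 lists numbered 35 as deposited and 22 after quantile normalization. The cause was not tested. The falls of TGFB1, TGFBR1 and TGFBR2 kept their direction and call under each alternative run. The 5 genes whose probe sets differed numbered 5 under each alternative that tested all 9, except 6 after quantile normalization, which added SMAD7 (0.42), and 4 with the dimmest features left out, where fewer genes were tested. The replicate block changed no call, with 4 genes higher and 4 lower, 12 probe sets higher and 15 lower, and 5 genes differing between probe sets. Leaving out one array gave 3 to 4 genes higher, 4 to 5 lower, 8 to 12 probe sets higher and 14 to 15 lower; without the third Ctrl replicate 8 probe sets were higher. With probe sets averaged SMAD3 turned to 0.30 and SMAD4 to -0.45. SMAD6 turned to -0.12 (quantile), -0.17 (cyclic loess) and, leaving out one array, -0.061 to 0.12, and its other 2 probe sets to -0.12 and -0.11 (quantile) and -0.17 and -0.11 (cyclic loess). The least changed TGFBR1 probe set turned to -0.15 and -0.14, and ran from -0.015 to 0.16 leaving out one array, and the dimmest SMAD7 probe set turned to -0.057 and -0.050. Leaving out one array, the within-array difference of TGFB2 ran from -0.12 to 0.14 (-0.0062 without the second Ctrl replicate), and that of SMAD6 from -0.082 to 0.030. Of the results with a turned value, SMAD4 was called both as deposited and after the turn, and SMAD3 only after it.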
